A study of Mus musculus with 9 samples.

Results

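The genes described here are 10 regulators of mitochondrial genes and of fatty acid use in muscle: the coactivators Ppargc1a and Ppargc1b, the transcription factors Esrra, Nrf1, Tfam, Ppara and Ppard, and the fuel genes Pdk4, Ucp3 and Cpt1b. They were taken by symbol from the annotation of the array, which lists 24 of its 45101 probe sets to them, 22 of these to 1 gene alone. A probe set is a group of short oligonucleotides read as 1 value, given here as a log2 expression value. The set was chosen by the measured group means of Ppargc1a, which form a staircase in these same data, so the values of Ppargc1a are given as a description with no test. Of the 10 genes 9 have a probe set of their own, out of 18193 such genes on the array.

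Ppargc1a and Ppargc1b encode PGC-1alpha and PGC-1beta, coactivators that do not bind DNA themselves but dock onto nuclear receptors and nuclear respiratory factors. Through ERRalpha (Esrra), NRF-1 (Nrf1) and the PPARs (Ppara, Ppard) they raise transcription of genes for mitochondria and for fatty acid oxidation, and through Tfam they act on the mitochondrial genome. In skeletal muscle PGC-1alpha is known for its induction by contraction and for its role in oxidative fibres, and Pdk4, Ucp3 and Cpt1b are known as genes that follow fatty acid supply.

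RNA came from the gastrocnemius of the calf. The donors were CD-1 mice, an outbred stock, in young adulthood, sampled unfasted on day 14 of treatment. Testosterone mice were castrated and given a 2.5 mg testosterone pellet with 60-day release; castration mice were castrated and given a placebo pellet; sham mice underwent the operation without castration and received the placebo pellet. There were 3 Affymetrix arrays per group. Every array was hybridised with a pool of 3 mice, so SDs and p-values measure the spread between pools, and the number of arrays limits the precision. The pellet gives 1 dose and all groups were sampled on 1 day.

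Testosterone 2 and sham 2 were the least similar arrays, with mean correlations to the others of 0.981 and 0.972, while the other 7 ranged from 0.989 to 0.991. Skeletal muscle fibre markers averaged between 13.78 and 13.81 on all 9 arrays, so the markers of the labelled tissue were present. Adipocyte markers (8 of 10 listed) averaged 4.86 to 6.51 on testosterone arrays, 4.77 to 4.83 on castration arrays and 5.08 to 6.31 on sham arrays, highest within their groups on testosterone 2 and sham 2. Brown adipocyte markers averaged 3.39 to 3.60, 3.29 to 3.37 and 3.34 to 4.44 in the same order of groups. On sham 2 Ucp1 stood at 5.84, Cidea at 6.27 and Prdm16 at 3.77, each the highest of the 9 arrays. Elovl3 at 2.99 and Dio2 at 3.32 were not highest there. Lymphocyte markers (3 of 4) averaged 4.99 on testosterone 2 and 3.73 on sham 2, against 3.03 to 3.19 on the other arrays. Fibroblast markers averaged 7.59 to 8.16 with testosterone, 8.45 to 8.66 after castration and 7.56 to 8.60 in sham, so the testosterone arrays lay below the castration arrays. Endothelial markers averaged 5.41 to 5.82, 5.77 to 6.15 and 5.26 to 5.75, macrophage markers 4.43 to 5.08, 4.38 to 4.68 and 4.55 to 4.67, and nerve markers 4.97 to 5.58, 5.23 to 5.95 and 5.32 to 6.08 in the same order. The part of these cell types in the results was not tested. Over all 18193 genes, each represented by its brightest probe set, limma called 0 genes in any of the 3 comparisons at an adjusted p under 0.05. At an unadjusted p under 0.05 the shares were 4.72% of genes in castration against sham, 3.48% in testosterone against castration and 4.35% in testosterone against sham. In bulk muscle, fewer cells of a type and less RNA per cell cannot be told apart.

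Ppargc1a was taken for the group pattern described next, and Esrra for the narrowest range of the set over the 9 arrays. Pdk4 and Ucp3 were taken for a Pearson r of 0.80 over the arrays, which did not pass adjustment (exact permutation test, adjusted p = 0.126). The sequences just upstream of these 4 genes are shown. Each is the 250 bases before the start site listed by RefSeq on build GRCm38.p6, read 5′ to 3′ on the gene's strand: chr5:51567726-51567975 (minus strand) for Ppargc1a, chr6:5496279-5496528 (minus strand) for Pdk4, chr7:100472741-100472990 (plus strand) for Ucp3 and chr19:6921809-6922058 (minus strand) for Esrra. The Ppargc1a window lies inside the span listed for the gene, 51454249 to 52115853 on chromosome 5, which reaches farther upstream. Most of the Esrra window also lies inside its listed span, 6910977 to 6922048 on chromosome 19. Capitals mark matches on either strand to AGGTCA, the element bound by PPARs and ERRs, to its extended form AAGGTCA, to AGAACA, an element of androgen and glucocorticoid receptor sites, and to GCGCA, the core of NRF-1 sites.
Ppargc1a: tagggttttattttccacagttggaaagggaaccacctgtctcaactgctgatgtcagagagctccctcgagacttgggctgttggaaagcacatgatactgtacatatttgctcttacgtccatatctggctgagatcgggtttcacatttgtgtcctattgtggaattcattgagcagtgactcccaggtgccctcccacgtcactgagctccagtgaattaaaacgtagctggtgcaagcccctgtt
Pdk4: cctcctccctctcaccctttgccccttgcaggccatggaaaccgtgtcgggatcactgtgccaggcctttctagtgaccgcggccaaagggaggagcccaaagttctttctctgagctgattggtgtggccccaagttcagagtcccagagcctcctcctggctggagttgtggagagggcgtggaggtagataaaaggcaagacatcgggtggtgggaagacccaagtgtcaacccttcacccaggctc
Ucp3: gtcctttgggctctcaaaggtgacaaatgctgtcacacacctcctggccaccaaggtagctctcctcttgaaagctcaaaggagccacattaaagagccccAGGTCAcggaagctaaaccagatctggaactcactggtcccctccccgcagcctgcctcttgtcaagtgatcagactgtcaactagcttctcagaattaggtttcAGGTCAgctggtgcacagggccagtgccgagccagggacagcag
Esrra: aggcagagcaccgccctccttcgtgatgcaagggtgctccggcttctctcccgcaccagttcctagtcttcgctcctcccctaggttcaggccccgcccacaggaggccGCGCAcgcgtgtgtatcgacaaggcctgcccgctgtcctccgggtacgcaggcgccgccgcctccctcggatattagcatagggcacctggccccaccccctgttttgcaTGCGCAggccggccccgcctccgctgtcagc

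None of these 4 motifs is present in the Ppargc1a or the Pdk4 window. Ucp3 has AGGTCA at 149 and at 44 bases before its start site, and Esrra has GCGCA in 3 places, 2 of which overlap. Of the 8 genes of the set with a window, 1 holds AGGTCA, 0 hold AAGGTCA, 2 hold AGAACA (Tfam and a second start of Nrf1) and 2 hold GCGCA (Esrra and Ppara). Among 32851 mouse windows of the same length these letters occur in 14.0%, 4.08%, 16.1% and 25.6%. The windows of Tfam, Ppara and the second start of Nrf1 lie inside the spans listed for these genes. A match is only a run of letters, and its absence says nothing of binding elsewhere.

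Ppargc1a was highest with testosterone, intermediate after castration and lowest in sham muscle. Its brightest probe set, 1460336_at, read 8.33, 8.35 and 7.88 on testosterone arrays, 7.60, 7.91 and 7.14 on castration arrays and 7.31, 6.20 and 6.80 on sham arrays. The testosterone arrays lay wholly above the sham arrays, while the castration arrays overlapped both groups. Means were 8.18 ± 0.27 with testosterone, 7.55 ± 0.39 after castration and 6.77 ± 0.55 in sham (SD, n = 3 each). The testosterone mean was 2.67-fold the sham mean and 1.55-fold the castration mean, and the castration mean was 1.72-fold the sham mean.

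The log2 difference of 1.42 between testosterone and sham was the highest of all 18193 genes in that comparison, rank 1. With castration against sham Ppargc1a ranked 92 from the top, at 0.78, and with testosterone against castration 138, at 0.63. The comparisons share arrays, so these ranks are not independent of each other, and they describe the value that brought the gene into the set. They order genes by difference alone, without regard to spread. Within groups the SD of Ppargc1a was 0.42, larger than that of 93.6% of genes. Without sham 2 and testosterone 2 it was 0.37, larger than that of 98.3% of genes. Of all genes, 20.4% had group means in this order.

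Sham 2 was the lowest of the 9 arrays for this probe set, and testosterone 2 the highest. With both left out the testosterone mean was 8.10 and the sham mean 7.05, the difference between them was 1.05, which ranked 3, and the differences were 0.50 for castration against sham and 0.55 for testosterone against castration. The order of the means was the same, and the size against sham was smaller. The brown adipocyte genes Ucp1, Cidea and Prdm16 were highest on sham 2, the array with the lowest Ppargc1a, while Elovl3 and Dio2 were not. The part of that array's composition in the Ppargc1a value was not tested.

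**Figure D1:**
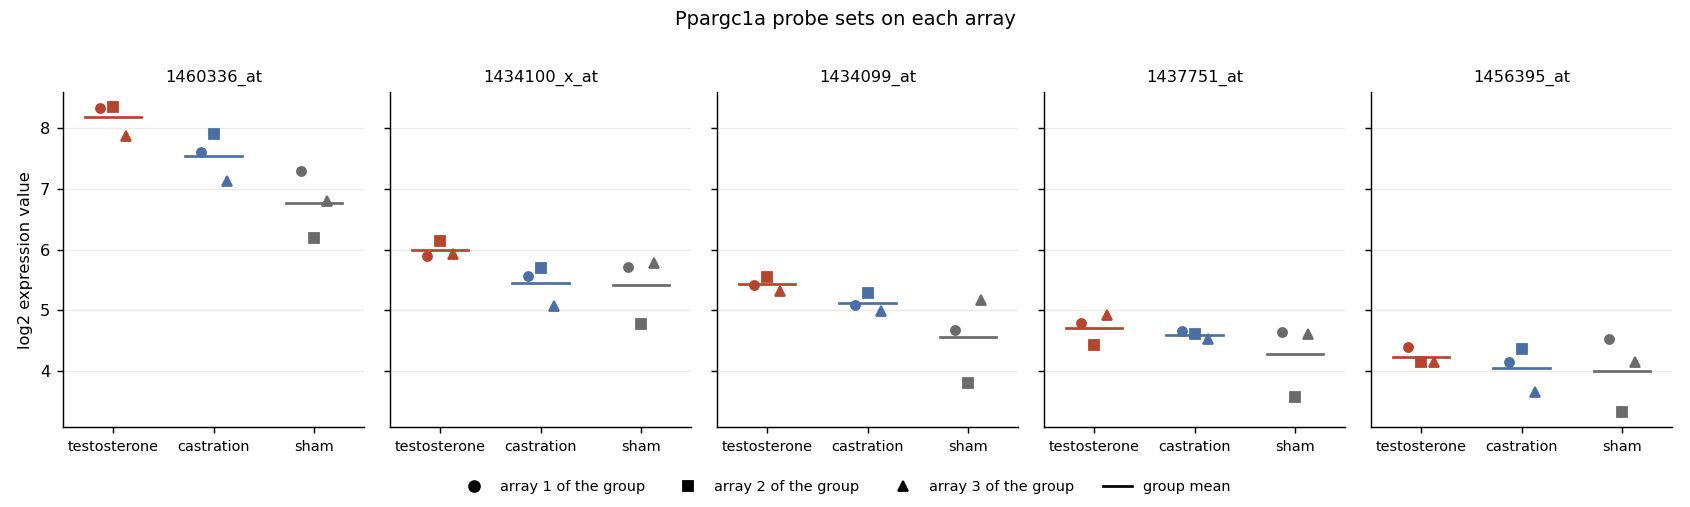
Log2 expression value (vertical axis) of the 5 Ppargc1a probe sets, 1 panel each, on the arrays of the testosterone, castration and sham groups; points are arrays, shaped by array number, and bars are group means. Levels are to be compared within a panel. In 1460336_at the testosterone arrays lie between 7.88 and 8.35, all above the sham arrays, and sham 2 is the lowest array in every panel.

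The other 4 probe sets of Ppargc1a showed smaller differences. All 5 had means in the order testosterone, castration, sham with all arrays, but only 2 did without sham 2 and testosterone 2. For 1434099_at the values were 5.42, 5.55 and 5.32 with testosterone, 5.09, 5.28 and 4.99 after castration and 4.68, 3.81 and 5.18 in sham, and the testosterone arrays lay above those of both other groups. For 1434100_x_at, whose suffix marks possible cross-hybridisation, testosterone arrays read 5.89, 6.15 and 5.93, castration arrays 5.57, 5.70 and 5.07 and sham arrays 5.71, 4.78 and 5.77, again with testosterone above both. The dimmer 1437751_at and 1456395_at differed between testosterone and sham by 0.44 and 0.23, with overlapping arrays. The castration step above sham was 0.57 in 1434099_at and 0.33 in 1437751_at but 0.03 in 1434100_x_at and 0.05 in 1456395_at, so the staircase was not shared in size by the probe sets. Pairs of the 5 probe sets correlated over the arrays between 0.66 and 0.85, and between 0.01 and 0.78 without sham 2 and testosterone 2. Which transcripts each probe set reads was not analysed here.

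Ppargc1b, the second coactivator, had 1 probe set and no such staircase. It read 7.18, 7.29 and 6.91 with testosterone, 7.08, 7.37 and 6.93 after castration and 6.70, 6.53 and 7.14 in sham. Sham 1 and sham 2 lay below all other arrays, and sham 3 lay among them. The log2 difference was 0.34 (SE 0.18) for castration against sham and likewise 0.34 (SE 0.18) for testosterone against sham, limma adjusted p = 0.838 and 0.780. Without sham 2 and testosterone 2 these were 0.21 and 0.12, and after renewed quantile normalisation of the arrays 0.14 and 0.15. Between testosterone and castration the difference was 0.00 with a 95% interval of −0.42 to 0.42.

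Among the factors that PGC-1 coactivators dock onto, Esrra had the narrowest range over the 9 arrays. Without sham 2 and testosterone 2 the SD within groups was 0.14 for Esrra and 0.10 for Nrf1. Of all genes, 32.3% had a smaller SD within groups than Esrra, and 63% did without these 2 arrays. Its values were 7.72, 7.69 and 7.83 with testosterone, 7.77, 7.64 and 7.72 after castration and 7.91, 7.65 and 7.57 in sham, and all 9 arrays lay within 0.35. The 95% intervals of its log2 differences ran from −0.24 to 0.23 for castration against sham, −0.20 to 0.27 for testosterone against castration and −0.20 to 0.27 for testosterone against sham. Its second probe set stayed between 3.17 and 3.81, close to the array medians of 3.15 to 3.26.

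Nrf1 here is nuclear respiratory factor 1, a factor for nuclear genes of mitochondrial proteins, and all 4 of its probe sets were dim, between 3.13 and 4.19. The brightest read 4.04, 3.73 and 3.82 with testosterone, 3.71, 3.85 and 3.82 after castration and 3.73, 4.19 and 3.82 in sham, with overlapping groups. A level this near the array medians leaves changes of Nrf1 poorly measured. One of its other probe sets, 1420978_at, had a difference of 0.29 between testosterone and castration with overlapping arrays, an unadjusted limma p of 0.047 and an adjusted p of 1.00 over all probe sets.

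Tfam, which packages mitochondrial DNA and activates its transcription, read 6.57, 6.12 and 6.08 with testosterone, 6.22, 6.38 and 6.22 after castration and 5.82, 5.05 and 6.47 in sham. The sham arrays spanned the widest range, with the lowest value on sham 2. The difference was 0.49 (SE 0.31) for castration against sham and 0.47 (SE 0.31) for testosterone against sham, adjusted p = 0.838 and 0.780. Without sham 2 and testosterone 2 these became 0.13 and 0.18, so most of the size rested on sham 2. A second probe set had the opposite sign in both, at −0.13 and −0.14.

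The PPARs are nuclear receptors for fatty acids. Ppara read 5.78, 6.48 and 6.18 with testosterone, 6.04, 6.37 and 6.13 after castration and 6.02, 5.40 and 6.28 in sham, and the groups overlapped. Its difference was 0.28 (SE 0.25) for castration against sham and 0.25 (SE 0.25) for testosterone against sham, adjusted p = 0.841 and 0.794, and without sham 2 and testosterone 2 it was 0.03 and −0.17. A second probe set, 1439675_at, differed by 0.25 for castration against sham, −0.27 for testosterone against castration and −0.02 for testosterone against sham. Its arrays overlapped in each comparison. The dim probe set 1457721_at read 4.13, 4.07 and 4.10 with testosterone, below the castration values of 4.13, 4.46 and 4.31, with testosterone 1 and castration 1 equal at this rounding, and its adjusted p was 1.00.

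Ppard read 4.56, 5.04 and 4.62 with testosterone, 4.61, 5.18 and 4.68 after castration and 4.55, 4.55 and 4.68 in sham. Testosterone 2 and castration 2 stood above the other 7 arrays. Its differences were 0.23 (SE 0.17) for castration against sham, −0.08 (SE 0.17) for testosterone against castration and 0.14 (SE 0.17) for testosterone against sham, with adjusted p of 0.838, 1.00 and 0.826. A dim second probe set, 1425703_at, lay lower on testosterone arrays, at 3.15 to 3.16, than on castration arrays, at 3.25 to 3.43, and sham arrays, at 3.18 to 3.34. Its unadjusted limma p was 0.033 against castration and 0.130 against sham, with adjusted p of 0.9999 and 0.797 over all probe sets. Another probe set is listed to Ppard together with 1810013A23Rik, a noncoding gene inside the Ppard locus on chromosome 17, and cannot be assigned to either.

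For Pdk4 and Ucp3 the group means differed little beside the spread between pools. Pdk4, the kinase that inactivates pyruvate dehydrogenase and so spares glucose, read 9.27, 9.04 and 9.90 with testosterone, 10.23, 8.59 and 9.37 after castration and 9.32, 8.82 and 9.59 in sham. The highest and the lowest of the 9 arrays were both castration arrays, 1.64 log2 units apart. Within groups its SD of 0.59 was larger than that of 98.6% of genes. The group means were 9.41 ± 0.45 with testosterone, 9.40 ± 0.82 after castration and 9.24 ± 0.39 in sham (SD, n = 3 each), with adjusted limma p of 0.938 for castration against sham, 1.00 for testosterone against castration and 0.918 for testosterone against sham. The intervals are wide, from −0.91 to 0.93 for testosterone against castration, so differences of either sign within this range are compatible with the values.

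Ucp3, an inner-membrane carrier of muscle mitochondria, read 6.31, 5.85 and 7.04 with testosterone, 6.62, 5.96 and 6.49 after castration and 6.75, 5.71 and 6.51 in sham. Its SD within groups, 0.51, exceeded that of 97.1% of genes. Array 2 was the lowest of its group in all 3 groups, for Ucp3 as for Pdk4. The labels do not say that a replicate number marks a shared batch. Differences of Ucp3 lay between 0.03 and 0.08, with adjusted p from 0.960 to 1.00, and its second probe set differed by −0.13 to −0.06.

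Cpt1b, the muscle carnitine palmitoyltransferase that admits fatty acids to the mitochondrion, has no probe set of its own. Its only one, 1418328_at, is listed together with its neighbour Chkb, a choline kinase, and with Gm44502, a noncoding gene that spans both on chromosome 15, from 89416405 to 89429927. This shared probe set read 8.75, 9.03 and 9.02 with testosterone, 9.06, 8.63 and 8.97 after castration and 9.23, 8.80 and 8.88 in sham. The groups overlapped, and the differences were −0.08, 0.05 and −0.03 for castration against sham, testosterone against castration and testosterone against sham, with limma adjusted p of 0.926, 1.00 and 0.961 over all probe sets.

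**Figure D2:**
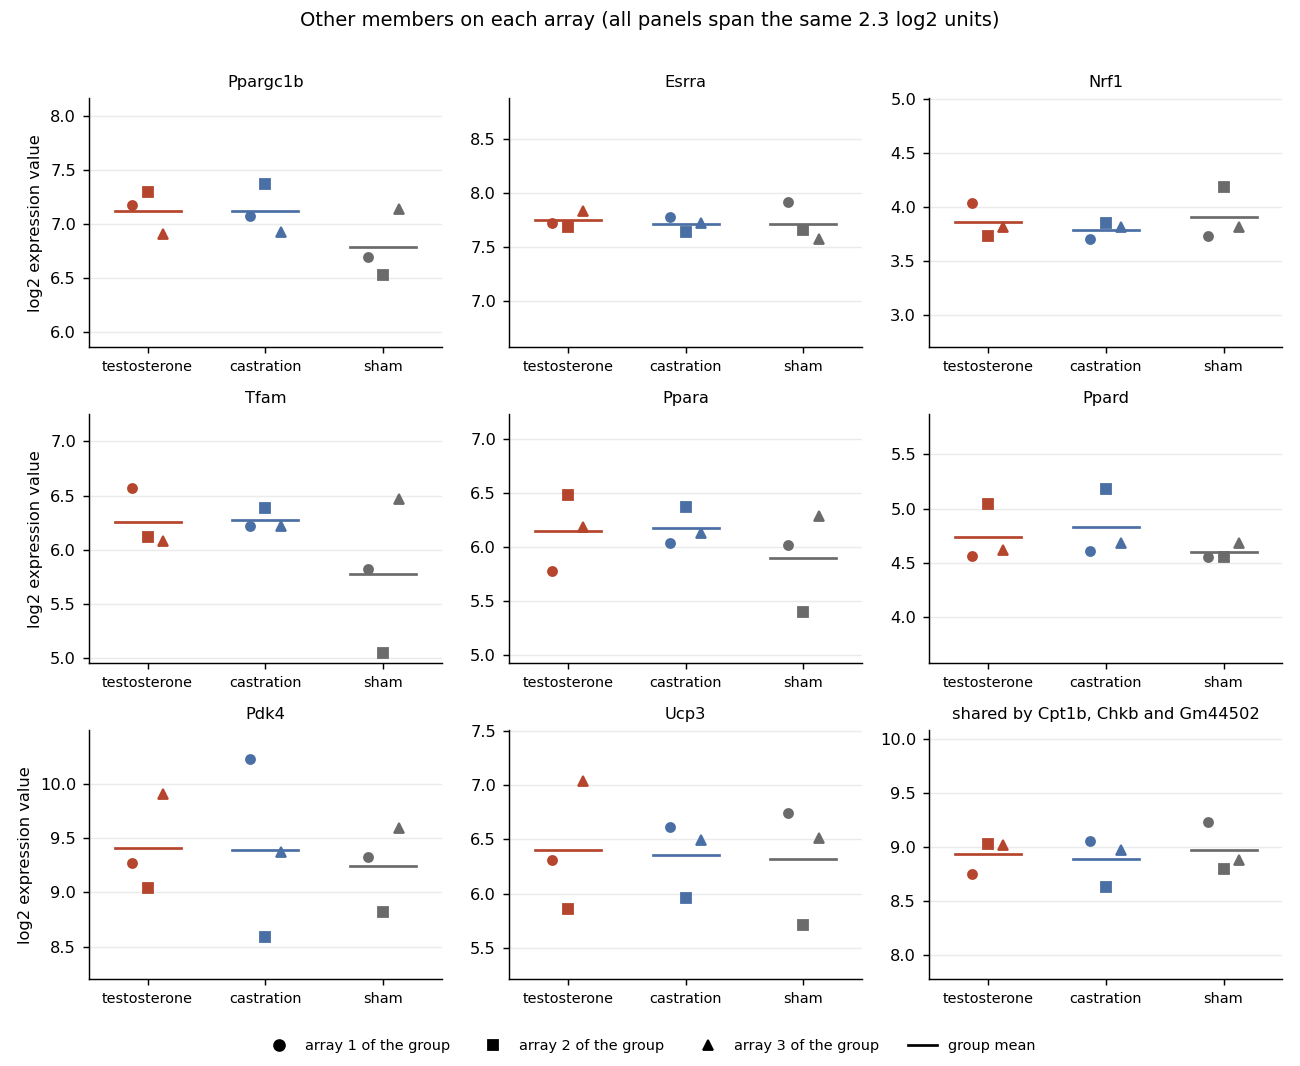
Log2 expression value (vertical axis) of the other genes of the set on the arrays of the testosterone, castration and sham groups; points are arrays, shaped by array number, and bars are group means. For Pdk4 and Ucp3 array 2 is the lowest in each group, while Esrra stays within 0.35.

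Of the 8 genes tested, that is all with a probe set of their own except Ppargc1a, 0 were called in any comparison by limma over all genes, where 0% of all genes were called. At an unadjusted p under 0.05 the count was also 0 in each comparison, beside 4.72%, 3.48% and 4.35% of all genes for castration against sham, testosterone against castration and testosterone against sham. Over the 19 probe sets other than those of Ppargc1a, 0, 2 and 0 had an unadjusted p under 0.05, beside 4.19%, 3.02% and 4.75% of all probe sets. Arrays of the groups compared were without overlap for 0 of the 8 in each comparison, beside 8.89%, 9.01% and 6.47% of all genes. For castration against sham 6 were higher and 2 lower, with a median of 0.19 against 0.01 over all genes. For testosterone against castration 5 were higher and 3 lower, with a median of 0.01 against −0.01. For testosterone against sham 7 were higher and 1 lower, with a median of 0.15 against 0.01. Of all genes, 52.9%, 48.3% and 52.1% were higher in these 3 comparisons. With sham 2 and testosterone 2 left out, the counts were 5 higher and 3 lower, 5 and 3, and 6 and 2, and the medians were 0.02, 0.06 and 0.08. Brighter genes as a whole differed from sham in the deposited values: the median over the 5562 genes with a mean of at least 5 was 0.15 for castration against sham, −0.01 for testosterone against castration and 0.14 for testosterone against sham. After renewed quantile normalisation these medians were within 0.0041 of 0, and the differences of Ppargc1a were 0.60, 0.65 and 1.26. The medians of the set against sham were thus close to those of brighter genes.

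**Figure D3:**
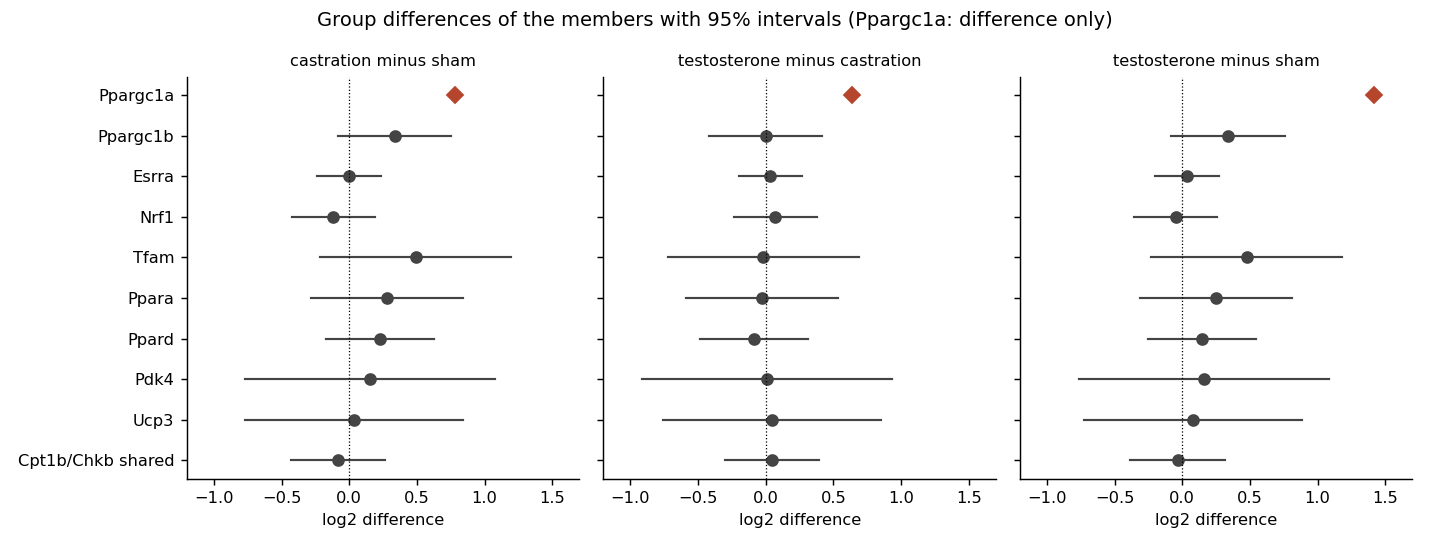
Log2 difference (horizontal axis) of each gene of the set in the 3 comparisons, with 95% intervals from limma as lines; Ppargc1a is drawn as a diamond with no interval because it was chosen for its pattern. The intervals of the 8 tested genes and of the shared Cpt1b probe set all cross 0, and the Ppargc1a differences are 0.78, 0.63 and 1.42.

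Across the 9 arrays Pdk4 and Ucp3 went together, with a Pearson r of 0.80 (exact permutation p = 0.0104, adjusted 0.126 over 28 pairs of the 8 genes) and a Spearman rho of 0.82 (exact permutation p = 0.0108, adjusted 0.151), both two-sided. Neither passed the adjustment. Without the 2 arrays farthest from the Pdk4 median, castration 1 and castration 2, r was 0.92, and with group means removed it was 0.80. Ppargc1b and Tfam had r = 0.82 (exact permutation p = 0.00352, adjusted 0.0986), which became 0.39 without sham 1 and sham 2, the arrays farthest from the Ppargc1b median, 0.85 without sham 2 and testosterone 2 and 0.75 with group means removed. Nrf1 and Ppara had r = −0.80 (exact permutation p = 0.0135, adjusted 0.126), which was 0.31 without testosterone 1 and sham 2, the arrays farthest from the Nrf1 median, −0.40 without testosterone 2 and sham 2 and −0.79 with group means removed. Ppara and Ppard had a Spearman rho of 0.94 (exact permutation p = 0.000485, adjusted 0.0136) and a Pearson r of 0.69 (exact permutation p = 0.0401, adjusted 0.187), and r was 0.71 without sham 2 and testosterone 2, the arrays farthest from the Ppara median. With group means removed the Pearson r of Ppara and Ppard was 0.64. Theirs was the only pair of 28 that passed, and it passed by Spearman rho alone. Arrays share a normalisation, which these correlations also contain.

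By likeness over the 9 arrays among 5470 other named genes with a mean of at least 5, the genes most like Pdk4 were Acot7 (r = 0.93), Mlycd (0.91) and Acadl (0.89). Mlycd encodes malonyl-CoA decarboxylase, which removes the inhibitor of carnitine palmitoyltransferase, Acadl an acyl-CoA dehydrogenase of beta-oxidation, and Acot7 an acyl-CoA thioesterase. Mlycd read 7.71, 7.68 and 7.83 with testosterone, 7.83, 7.50 and 7.71 after castration and 7.71, 7.49 and 7.82 in sham. Its lowest arrays, castration 2 and sham 2, were also the lowest for Pdk4 and Acadl, and its range was far narrower than that of Pdk4. Without sham 2 and testosterone 2 the correlations with Pdk4 were 0.94 for Acot7, 0.93 for Mlycd and 0.87 for Acadl. The genes most like Ucp3 were Gas5 (r = 0.93), Plekhb2 (0.93) and Mtfr1 (0.93), and those most like Ppargc1a were Fyttd1 (r = 0.97), Zfp644 (0.96) and Cpd (0.95). Fyttd1 read 8.22, 8.03 and 7.66 with testosterone, 7.65, 7.998 and 7.20 after castration and 7.56, 6.19 and 6.81 in sham, and its r with Ppargc1a was 0.96 without sham 2 and testosterone 2. These are the highest of many correlations and carry no p.

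**Figure D4:**
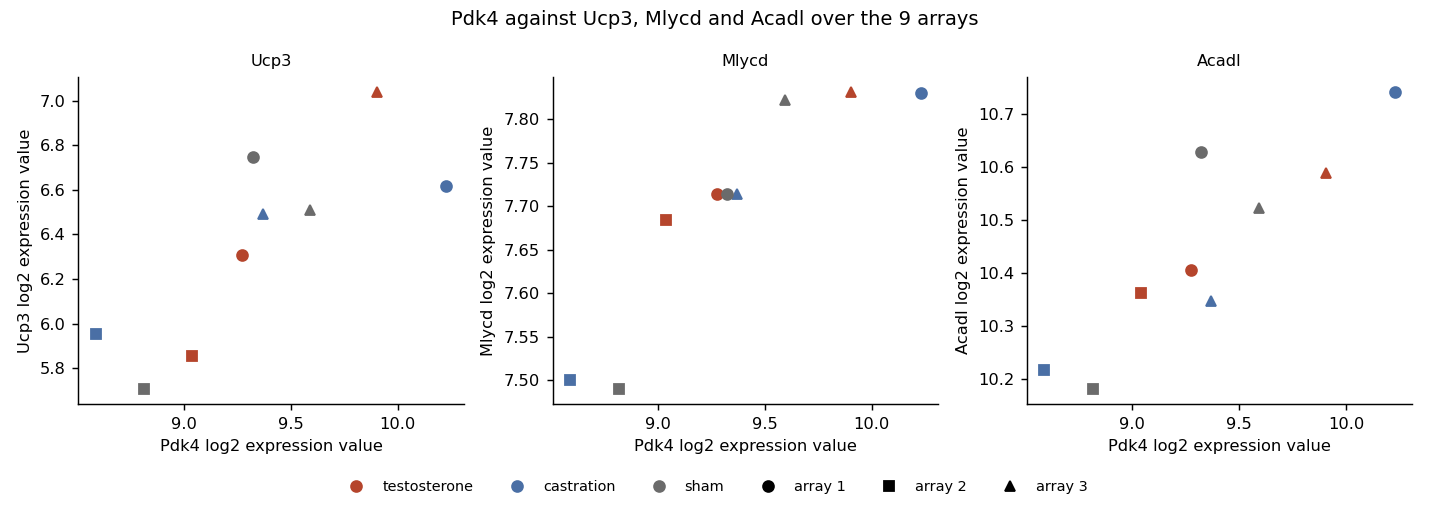
Log2 expression values of Ucp3, Mlycd and Acadl (vertical axes) against that of Pdk4 (horizontal axis) on the 9 arrays, coloured by group and shaped by array number. Arrays of all 3 groups are mixed along the diagonal, with castration 2 and sham 2 at the low end and castration 1 at the highest Pdk4 value of 10.23.

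The wider pathway was read from 5 lists, of which 82 of 88 genes had a probe set listed to them alone. Limma, whose smallest adjusted p in the lists was 0.118, called 0 of the 82 in any comparison, where 0% of all genes were called. At an unadjusted p under 0.05 there were 6 genes in castration against sham, 2 in testosterone against castration and 4 in testosterone against sham, which are 7.32%, 2.44% and 4.88% of the lists beside 4.72%, 3.48% and 4.35% of all genes.

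Among partners and modifiers of the PGC-1 coactivators, 17 of 23 were higher and 6 lower in castration against sham (median 0.14), 11 higher and 12 lower in testosterone against castration (median −0.00) and 17 higher and 6 lower in testosterone against sham (median 0.19). Without sham 2 and testosterone 2 the medians were 0.06, 0.02 and 0.09. Pprc1, the PGC-related coactivator that completes the family, read 5.42, 5.39 and 5.24 with testosterone, 5.08, 5.53 and 4.90 after castration and 4.57, 4.45 and 4.98 in sham. Its testosterone arrays lay above its sham arrays, as for Ppargc1a, with a difference of 0.68 (SE 0.18) and an adjusted limma p of 0.780. Lpin1, which encodes the coactivator and phosphatidate phosphatase lipin 1, read 10.06, 9.83 and 9.99 with testosterone, 9.30, 9.39 and 9.30 after castration and 9.77, 9.54 and 9.76 in sham. Its 3 groups did not overlap, with castration lowest, and its adjusted p of 0.118 for testosterone against castration was the smallest of the lists.

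The ERR family members Esrrg and Esrrb averaged 5.40 and 4.05 with testosterone, 5.92 and 4.02 after castration and 5.32 and 4.37 in sham. Esrrg was above both other groups on all castration arrays, but its adjusted p was 0.838 against sham and 1.00 for testosterone against castration. Nrip1, a corepressor of oxidative genes, averaged 6.80 ± 0.18 with testosterone, 7.20 ± 0.13 after castration and 6.27 ± 1.12 in sham (SD, n = 3 each), the last because sham 2 read 4.98. Gabpa, the DNA-binding subunit of nuclear respiratory factor 2, averaged 4.66, 4.64 and 4.04, and Perm1, a muscle regulator downstream of PGC-1, averaged 8.05, 8.17 and 7.78 in the same order of groups. The energy sensors Prkaa2 and Sirt1 averaged 9.99 and 3.30 with testosterone, 10.31 and 3.45 after castration and 10.18 and 3.17 in sham. None of these genes passed in any comparison.

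Genes for expression of mitochondrial DNA had mostly positive differences from sham, as brighter genes as a whole did: 10 of 13 were higher in castration against sham (median 0.21) and 12 of 13 in testosterone against sham (median 0.20), with 6 of 13 higher in testosterone against castration (median −0.04). The medians against sham were 0.01 and 0.08 without sham 2 and testosterone 2. Tfb2m, a transcription factor of the mitochondrial genome, read 7.63, 7.30 and 7.18 with testosterone, 7.36, 7.68 and 7.29 after castration and 7.16, 6.86 and 7.16 in sham. The sham arrays were the 3 lowest, and the differences were 0.38 (SE 0.16) for castration against sham and 0.31 (SE 0.16) for testosterone against sham, with adjusted p of 0.838 and 0.780. Tfb1m differed by 0.39 (SE 0.14) in castration against sham, and Polrmt, the mitochondrial RNA polymerase, by 0.73 (SE 0.36) in testosterone against sham, with the same adjusted p of 0.838 and 0.780. The groups compared overlapped for both genes. Polrmt read 7.26, 7.49 and 6.98 with testosterone and 6.45, 5.75 and 7.36 in sham, lowest on sham 2.

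The fatty acid oxidation list had medians near 0, with single genes on either side. Of 25 genes, 16 were higher and 9 lower in castration against sham (median 0.06), 9 higher and 16 lower in testosterone against castration (median −0.08) and 11 higher and 14 lower in testosterone against sham (median −0.01). Leaving out sham 2 and testosterone 2, the medians were −0.04, −0.04 and −0.06. The difference farthest from 0 in the list was that of Echs1, an enoyl-CoA hydratase named here after its values were seen, at −0.67 (SE 0.31) for testosterone against castration, adjusted p = 1.00. Echs1 read 8.78, 7.80 and 8.78 with testosterone and 9.37, 8.75 and 9.26 after castration, so part of this size rested on testosterone 2. Cpt1a, the liver-type carnitine palmitoyltransferase, was dim, at 3.67 ± 0.21 with testosterone, 3.79 ± 0.13 after castration and 3.62 ± 0.17 in sham (SD, n = 3 each). Cpt2, its inner-membrane partner, averaged 8.72, 8.84 and 8.72, and the dehydrogenases Acadvl and Acadm averaged 10.46 and 10.76 with testosterone, 10.35 and 11.03 after castration and 10.41 and 10.98 in sham. Hadha, a subunit of the trifunctional protein, differed by −0.33 (SE 0.15) between testosterone and castration, adjusted p = 1.00. Cd36, a fatty acid transporter that adipocytes and endothelium also express, differed by 0.47 (SE 0.21) between testosterone and sham, adjusted p = 0.780. Its highest value, 9.73, came from testosterone 2, the array with the highest adipocyte marker mean, and the part of adipocytes in it was not tested.

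Pyruvate dehydrogenase genes were higher in 10 of 12 in castration against sham (median 0.07), in 1 of 12 in testosterone against castration (median −0.15) and in 5 of 12 in testosterone against sham (median −0.02). Without sham 2 and testosterone 2 the medians were 0.02, −0.02 and 0.05. Pdk2, the other kinase abundant in muscle, averaged 9.76 ± 0.29 with testosterone, 9.84 ± 0.31 after castration and 9.77 ± 0.19 in sham (SD, n = 3 each). Pdp1, the phosphatase that opposes the kinases, averaged 7.97 ± 0.56, 8.38 ± 0.12 and 7.73 ± 0.48 in the same order of groups, a difference of 0.65 (SE 0.30) for castration against sham with adjusted p = 0.838. Pdha1, the catalytic subunit, differed by −0.24 (SE 0.14) between testosterone and castration. It read 11.33, 10.87 and 11.43 with testosterone, and testosterone 2 was its lowest array of all.

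PPAR target genes outside oxidation were higher in 3 of 11 in castration against sham (median −0.08), in 6 of 11 in testosterone against castration (median 0.02) and in 3 of 11 in testosterone against sham (median −0.11), and without sham 2 and testosterone 2 the medians were −0.10, −0.00 and −0.06. Angptl4, a lipoprotein lipase inhibitor also made by adipocytes, read 3.76, 5.06 and 4.40 with testosterone, 4.10, 4.00 and 3.98 after castration and 4.05, 4.94 and 4.76 in sham. Its highest arrays within the testosterone and sham groups, testosterone 2 and sham 2, also had the highest adipocyte marker means, and the part of adipocytes in these values was not tested. Fabp3, a muscle fatty acid carrier, differed by at most 0.17 between any 2 groups, with SE 0.21.

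**Figure D5:**
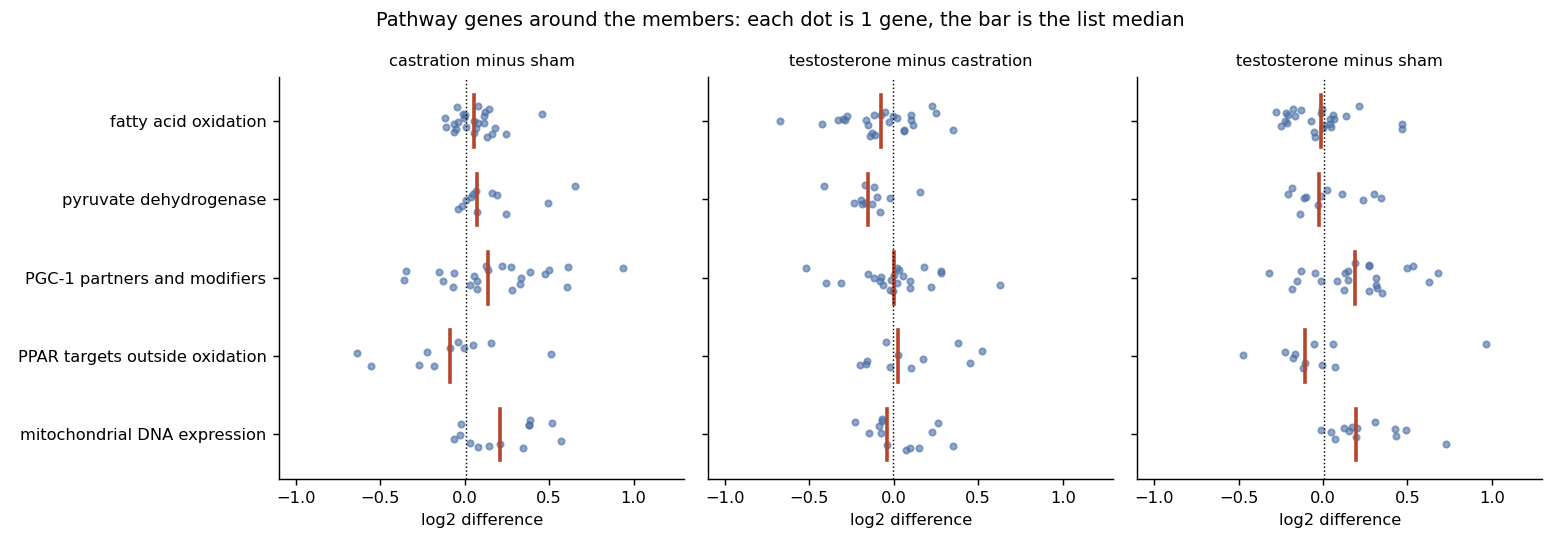
Log2 difference (horizontal axis) of the pathway genes in 5 lists for the 3 comparisons; each dot is 1 gene, the bar is the list median and the dotted line marks the median of all 18193 genes. The medians for expression of mitochondrial DNA and for PGC-1 partners lie between 0.14 and 0.21 in both comparisons with sham, and those of the other lists lie between −0.15 and 0.07.

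Slow fibre markers varied between pools of every group. The mean of 8 markers was 10.29 to 11.31 on testosterone arrays, 10.44 to 11.24 on castration arrays and 9.98 to 10.99 on sham arrays. The median difference of the list was 0.49 for testosterone against sham, and 0.01 without sham 2 and testosterone 2, where that of Ppargc1a was 1.05. No marker was called in any comparison. Testosterone 2 had the highest value of both Ppargc1a and the slow fibre mean, and sham 2 the lowest of both. Sham 1, with Ppargc1a at 7.31, was the highest of its group in both. Testosterone 1, with Ppargc1a at 8.33, had the lowest slow fibre mean of its group. Castration 2, with the highest Ppargc1a of its group at 7.91, had the lowest slow fibre mean of that group. The part of slow fibres in the Ppargc1a values was not tested.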

How the data were processed

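The deposited log2 values per probe set of 9 Affymetrix arrays come from RMA, which the submitters' processing notes name. The version used was not given in the sources used here. This method corrects background, quantile-normalises the arrays together and summarises probes. The probe set values still differed in distribution, with array medians of 3.15 to 3.26. Values were used as deposited. Groups and replicate numbers came from the sample titles, and the titles call them biological replicates.

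Of 45101 probe sets, 64 controls were left out; 34945 were listed to 1 gene, 932 to several and 9160 to none. Symbols were updated through gene identifiers of the RefSeq table for GRCm38.p6 (204 probe sets without a match kept theirs). The brightest probe set by mean stood for a gene, giving 18193 genes. Limma 3.58.1 in R 4.3.3 (lmFit, eBayes) was fitted over all genes and all 9 arrays with group as the only term, two-sided, with Benjamini-Hochberg adjustment; shared and second probe sets were read from the same fit over 45037 probe sets. All 10 genes of the set were named, list genes by a fixed set of names, and for Ppargc1a, Pdk4 and Ucp3 the 3 genes of highest Pearson r among genes with a mean of at least 5. Alternatives changed the probe set choice, normalisation, variance model, arrays and blocking. Motifs were searched on both strands. The genes, lists and tests were chosen with earlier results of these data known. Genes of the lists without a probe set of their own (6 of 88) are not reported here. The fit and the exact test were tested on simulated data.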

Additional observations from a re-analysis of the deposited data

How the results depend on the processing

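The Ppargc1a differences kept their sign under all alternatives: 0.34 to 1.05 for castration against sham, 0.36 to 0.81 for testosterone against castration and 0.71 to 1.69 for testosterone against sham. The alternatives reuse the same arrays, and this pattern brought the gene into the set, so the kept signs are a description and no test. The Ppargc1a differences were smaller by more than the spread with the mean of its probe sets (0.35 and 0.71 against sham for castration and testosterone) and with array weights (0.34 and 0.91). None of the 8 tested genes and of the shared Cpt1b probe set reached an adjusted p under 0.05 in any of the alternatives, the smallest being 0.183. Of 645 differences recomputed, 70 turned sign, all of them of genes that did not pass, and the cause was not tested.

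Same-numbered arrays of 2 groups had deviations from their group means that correlated between −0.49 and 0.27. With 3 arrays per group these values cannot decide whether the replicate numbers pair the arrays. With a block for the replicate number 0 genes were called in each comparison (840, 660 and 555 at an unadjusted p under 0.05), and no difference of the set changed its call. Nrf1 and Ppard have no value among genes with a mean of at least 5, nor the shared Cpt1b probe set where genes need a probe set of their own. Over all genes, the fit described above called 0 in each comparison. For castration against sham the calls were 2 with probe set means, 5 after renewed quantile normalisation, 2 with an intensity trend, 174 with array weights and 18 with sham 2 and testosterone 2 both left out. For testosterone against castration they were 12 with only the 2 groups, 2 with probe set means, 7 among genes with a mean of at least 5, 22 after renewed quantile normalisation, 12 with an intensity trend, 59 with array weights and 27 without those 2 arrays. Leaving out 1 array gave 0 to 7, 0 to 28 and 0 to 1 for castration against sham, testosterone against castration and testosterone against sham, highest without sham 2, sham 2 and testosterone 3, and testosterone against castration had 3 without sham 1. The array weight of sham 2 was 0.164 and that of sham 1 was 4.61.

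With the mean of probe sets the turned differences were Ucp3 −0.013 in castration against sham; Esrra −0.020, Ucp3 −0.013 in testosterone against castration; Esrra −0.065, Ucp3 −0.025 in testosterone against sham. Without suffixed probe sets the turned differences were Nrf1 0.12 in castration against sham; Nrf1 −0.15 in testosterone against castration. After renewed quantile normalisation the turned differences were Ucp3 −0.17 in castration against sham; Esrra −0.091, Ucp3 −0.13 in testosterone against sham. With median centring the turned differences were Esrra 0.031 in castration against sham. With array weights the turned differences were Nrf1 0.017, Ucp3 −0.26 in castration against sham; Ppargc1b −0.036, Tfam 0.022, Pdk4 −0.080, the shared Cpt1b probe set −0.010 in testosterone against castration; Esrra −0.10, Nrf1 0.14, Ucp3 −0.11 in testosterone against sham. With sham 2 and testosterone 2 both left out the turned differences were Nrf1 0.019, Pdk4 −0.062, Ucp3 −0.27 in castration against sham; Ppargc1b −0.083, Tfam 0.052 in testosterone against castration; Nrf1 0.15, Ppara −0.17, Ppard −0.028 in testosterone against sham. Leaving out 1 array, castration against sham gave Esrra −0.072 to 0.10, Nrf1 −0.21 to 0.019, Pdk4 −0.26 to 0.56, the shared Cpt1b probe set −0.17 to 0.049, Ucp3 −0.27 to 0.25. Leaving out 1 array, testosterone against castration gave Esrra −0.0088 to 0.066, Nrf1 −0.019 to 0.14, Pdk4 −0.39 to 0.43, Ppara −0.20 to 0.16, Ppard −0.23 to 0.094, Ppargc1b −0.099 to 0.13, the shared Cpt1b probe set −0.082 to 0.14, Tfam −0.17 to 0.071, Ucp3 −0.27 to 0.32. Leaving out 1 array, testosterone against sham gave Esrra −0.038 to 0.13, Nrf1 −0.14 to 0.089, Pdk4 −0.087 to 0.35, Ppara −0.0038 to 0.44, Ppard −0.0057 to 0.23, the shared Cpt1b probe set −0.12 to 0.097, Ucp3 −0.24 to 0.35.

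Dim probe sets, near the array medians of 3.15 to 3.26, limit Nrf1 and the second probe sets of Esrra and Ppard. The 3 arrays per group, each a pool, leave intervals of nearly 1 log2 unit on either side for Pdk4.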
